A study of Canis lupus familiaris with 20 samples.

Results

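Solute carriers are membrane proteins that move sugars, amino acids, neurotransmitters, nucleosides, lipids, metals and ions into and out of cells and organelles. Probes of a dog retina array were taken as solute carriers where the gene name began with SLC, a family number, the letter A and a member number. A gene was kept where the scanner marked a probe as clearly brighter than background on 4 or 5 of the 5 arrays in any group, and its brightest passing probe stood for it. This gave 193 of the 252 solute carrier genes named on the array. The rule left out SLC1A3, SLC2A1, SLC6A9, SLC14A1, SLC16A1, SLC24A1 and SLC24A2. It used no comparison between groups, but 60 of the 193 genes were not above background on all 20 arrays, and 15 passed only through the PBS eyes of normal dogs. For those 15 a lower signal elsewhere is partly what the filter chose.

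The study put 12 µg of ciliary neurotrophic factor (CNTF), a cytokine, into the vitreous of the right eye of 10 dogs and phosphate-buffered saline (PBS) into the left. Retinas were taken 1 week later and each was measured on its own array, so that 4 groups of 5 arrays resulted. The mutant dogs were CNGB3m/m, carrying the missense change D262N in CNGB3, a subunit of the cation channel through which cones signal light, and 3 of the 5 were female. Of the normal dogs 4 were CNGB3+/m carriers and 1, dog 3, was CNGB3+/+, and all were male. All dogs came from a single research colony. The labels give an age of 8.9 weeks for normal dogs and 10.7 to 11.5 weeks for mutants, whereas the design text of the series has about 11 months. By the labels, genotype therefore cannot be told apart from age in these dogs, and only in part from sex. Whole retinas were used, in which fewer cells of a type and less RNA per cell cannot be told apart.

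In the retina, transporters of Müller glia and neurons clear glutamate and GABA from synapses, and vesicular transporters load transmitter at the terminals of photoreceptors and interneurons. Photoreceptors hold much taurine, which SLC6A6 carries into cells, and depend on glucose and lactate carriers. Bicarbonate, chloride and proton carriers set cell volume, pH and the chloride gradient on which GABA acts. Macrophages and microglia use their own set, among them the metal carrier SLC11A1 of the phagosome and the fructose carrier SLC2A5.

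The probes below belong to the genes with the 3 largest rises or falls after CNTF in either genotype, and show which stretch of each transcript the largest changes rest on. The first 30 of 60 bases are printed, in lower case throughout because no part is singled out. Positions refer to canFam2, the build in the array files, and which exon or untranslated part they cover was not assigned here.
SLC2A5, chr5:65416375-65416434, minus strand: ttcaccaagatgaataaggtgtcagaggtg
SLC11A1, chr37:28046931-28046990, plus strand: acccagttgggggcgaatgaatgctgttga
SLC43A3, chr18:41810102-41810161, plus strand: tatgacgcccagcatttcgaggtggctccc
SLC4A7, no position in the array file: atgaatactgagaatgccaaagtaaccaga
SLC16A6, chr9:18145446-18145505, minus strand: actttcgcgaccgaattctggggtctgatg
SLC26A7, chr29:39709942-39710001, plus strand: gactcagagaaaccaatttcttttgaatca
SLC2A12, chr1:29979715-29979774, minus strand: ccaaaacagcttcagaaaagaaaaccccaa
SLC6A6 was read by 4 passing probes, which show that its change does not rest on a single stretch. All lie on the plus strand of chromosome 20. One spans 749 bases of the genome with its 60, so its ends lie farther apart in the genome than in the transcript.
SLC6A6 brightest probe, chr20:7620688-7620747: gcagtatacaagcttttgtgtataaatgtt
SLC6A6 second probe, chr20:7618993-7619052: gtgtaatgatgcgtgactttgatatgtctc
SLC6A6 probe spanning 749 bases, chr20:7610121-7610869: tggatatatggcagcgataacctttatgac
SLC6A6 dimmest probe, chr20:7619183-7619242: aaagaactttctgaggatgcagaaatgagt

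Levels are log2 of the processed intensity minus the 75th percentile of the same array, so that 0 marks the signal of a probe at that percentile. They compare arrays for a probe and not probes with each other. Between 52.2 and 71.9% of probes stood above background on an array. In normal dogs it was 67.2 to 71.9% in PBS eyes and 56.2 to 65.5% in CNTF eyes, without overlap. In mutants it was 60.8 to 66.3% in PBS eyes and 52.2 to 70.1% in CNTF eyes. Treatment followed the 5 slides closely. Normal dogs 1 and 2 (CNTF eyes) shared slide 3 with mutant dogs 4 and 5 (PBS eyes), and no other slide held both treatments. A difference within slide 3 therefore mixes treatment with genotype. Of marker lists for retinal cells, 11 of 13 genes of microglia and macrophages passed the filter, and 11 rose in normal dogs and 10 in mutants. All 5 cone genes fell in both genotypes. Of 6 genes of the retinal pigment epithelium, a tissue outside the neural retina, 4 fell in normal dogs and 3 in mutants.

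The first question was how CNTF changed the transporters of the normal retina. Between CNTF and PBS eyes of normal dogs 45 of 191 tested genes rose and 54 fell at an adjusted p under 0.05 (limma, dog as a block). That was 51.8% of them, against 51.2% of all probes tested. By direction it was 23.6% higher and 28.3% lower, against 23.6 and 27.6% of all probes. The shares of solute carriers called in normal dogs thus lay at the background. The median absolute change was 0.466, against 0.425 over all probes. The median difference was -0.14, against -0.09 over all probes. Of the 99 calls, 87 had the same direction in every dog measured in both eyes. The calls rest on these same differences between eyes, so this is not a separate check. Its share over all called probes was not counted.

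In mutant dogs 18 genes rose and 45 fell, 33% of 191 against 28.9% of all probes, with 9.42% higher (11.6% of all probes) and 23.6% lower (17.3%). The median was -0.15 against -0.09. All but 2 of the 63 calls, those of SLC39A11 and SLC7A7, had the same direction in every measured dog, which is no separate check either. CNTF and PBS eyes did not overlap for 66 genes of normal dogs, 27 above and 39 below, which is 34.6% against 30.1% of all probes. In mutants 9 lay above and 20 below, 15.2% against 14.8%. Both genotypes shared 13 rises (28.9% of those in normal dogs and 72.2% of those in mutants) and 27 falls (50 and 60%), and no gene was called in opposite directions. Over all probes the shares were 39.7 and 80.6% of rises and 35.5 and 56.9% of falls.

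**Figure D1:**
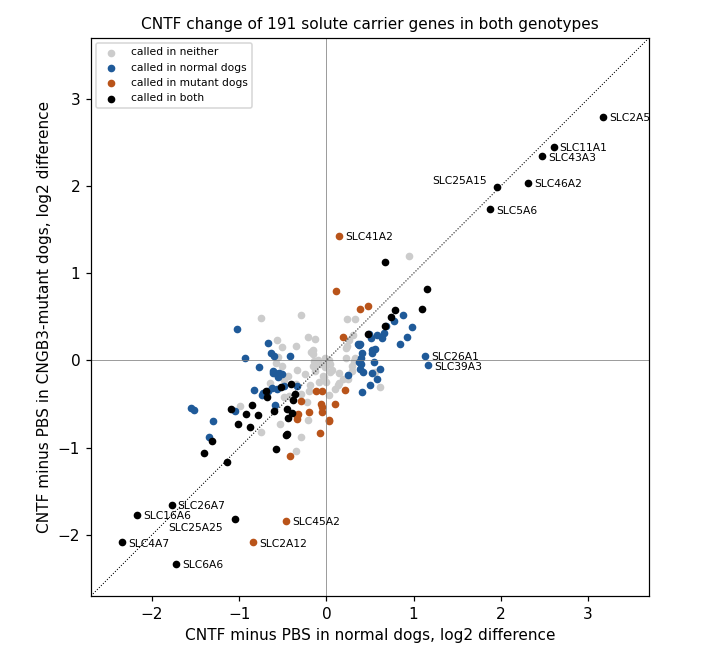
Log2 difference between CNTF and PBS eyes of 191 solute carrier genes, normal dogs on the horizontal axis and CNGB3-mutant dogs on the vertical axis, with a dotted line of equal change. Colours mark the genotype in which the gene was called. SLC2A5, SLC11A1 and SLC43A3 lie at the upper right, and SLC4A7, SLC16A6 and SLC6A6 at the lower left.

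Technical choices moved these counts. With normexp background correction 21 genes were called higher and 14 lower in normal dogs, and 8 and 16 in mutants. Over all 29336 probes tested it called 3521 higher and 2239 lower in normal dogs, and 1846 and 1452 in mutants. Before normexp those counts were 6913 and 8106 in normal dogs and 3409 and 5064 in mutants. With normexp the median of all probes shifted from -0.09 to 0.09 in normal dogs and to 0.17 in mutants. Normexp also ended the calls of SLC27A1 (-0.38), SLC40A1 (0.42), SLC9A3R1 (0.76) and SLC25A41 (-0.06) in normal dogs. In mutants it ended those of SLC12A8 (-0.32), SLC18A3 (0.74), SLC1A6 (-0.24), SLC25A1 (0.49), SLC3A2 (-0.06) and SLC41A2 (0.69). With slide as a block 10 calls remained in normal dogs and 5 in mutants. Over all probes this fit called 864 higher and 284 lower of 29282 in normal dogs. In mutants it called 500 and 297 of 29206. That fit left out the pairing of eyes. Its CNTF changes in both genotypes rest on slide 3, joined by genotype differences on slides 2 and 4, so they are not separate estimates. With slide and dog both as blocks 0 calls remained in either genotype. Over all probes 0 were then called in normal dogs, and 37 higher and 10 lower of 29121 in mutants. Within slide 3, 83 of the 99 calls of normal dogs and 59 of the 63 of mutants kept their sign. The arrays of slide 3 also entered the fits that gave the calls, so this is not a separate check. The same share over all called probes was not counted. Genes not above background on all 20 arrays gave 2 rises and 24 falls of 60 in normal dogs, and the 131 tested genes above it on every array gave 43 rises and 30 falls. In mutants the counts were 4 and 13 of 60, and 14 and 32 of 131. Of all 21191 tested probes above background on every array, 6434 rose and 5636 fell in normal dogs. In mutants 2908 of them rose and 3972 fell. The shares among all dimmer probes were not counted separately.

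**Figure D2:**
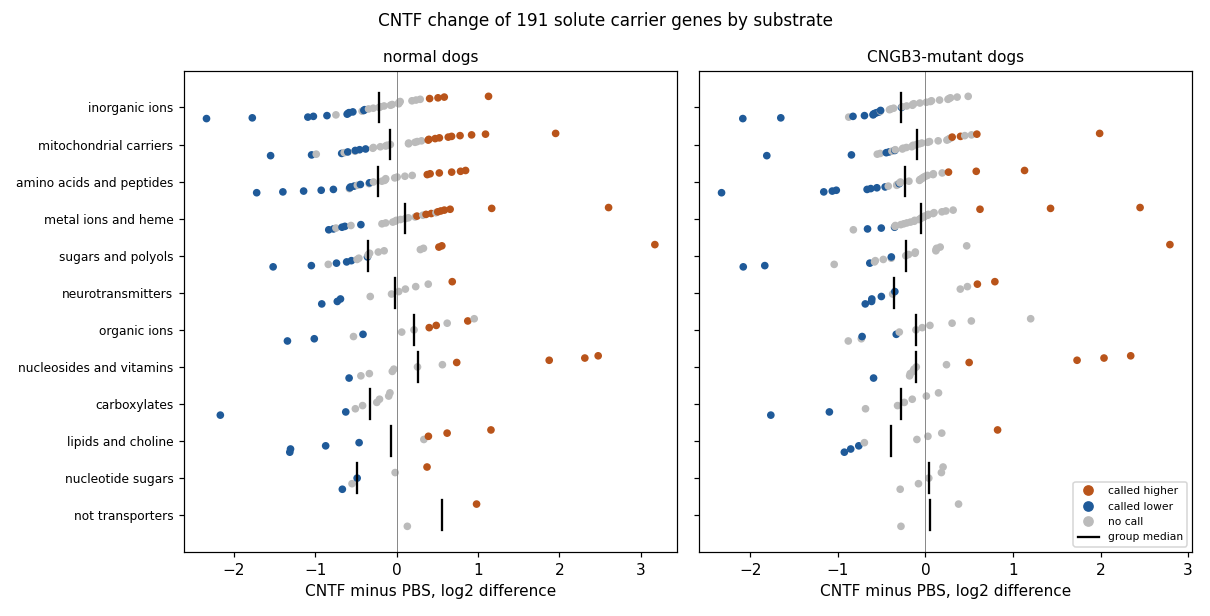
Log2 difference between CNTF and PBS eyes of 191 solute carrier genes by the substrate they carry, in normal dogs (left) and CNGB3-mutant dogs (right). Each point is a gene, orange where called higher, blue where called lower and grey where not called, and the bar is the median of the group, which lies between -0.49 and 0.26 for the groups of transporters.

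Counts by substrate below stand beside 23.6% of all probes called higher and 27.6% lower in normal dogs. In mutants those shares were 11.6 and 17.3%. No group of carriers was tested as a set. Among 19 sugar and polyol carriers SLC2A5, the fructose transporter GLUT5, showed the largest rise of any solute carrier. Its level in PBS eyes of normal dogs 1 to 5 was -2.55, -2.85, -3.06, -2.81 and -2.83, and in their CNTF eyes 0.63, -0.20, 0.55, 0.40 and 0.37. In mutants it was -2.97, -2.20, -2.46, -2.21 and -2.45 in PBS eyes and 0.16, 0.59, 0.14, 0.63 and 0.15 in CNTF eyes. Every CNTF eye lay above every PBS eye. The rise was 9.02-fold in normal dogs (3.17 ± 0.13 SE on the log2 scale, n = 5 dogs, adjusted p = 9.17e-08) and 6.93-fold in mutants (2.79 ± 0.13, adjusted p = 2.37e-07). A fit that took the slide as a block gave 2.83 ± 0.45 and 2.27 ± 0.45, both still called, although both rest on slide 3. The difference within slide 3 was 2.55. Microglia and macrophage markers moved with it: their mean level ran from -2.43 to -1.70 in PBS and 0.68 to 1.22 in CNTF eyes of normal dogs, and from -1.88 to -1.35 and 0.82 to 1.40 in mutants. CX3CR1, a defining marker, was above background on none of the 10 PBS arrays and on 9 of the 10 CNTF arrays. The part of these cells in the rise was not tested.

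Over all 19 sugar carriers there were 3 rises (SLC2A5, SLC2A8 and SLC50A1) and 6 falls in normal dogs, and in mutants SLC2A5 was the only rise beside 4 falls. SLC2A12, the glucose transporter GLUT12, fell in mutants. Its level was -2.46, -2.37, -4.18, -3.21 and -4.16 in PBS eyes of mutants 1 to 5 and -5.14, -5.66, -5.74, -4.90 and -5.34 in CNTF eyes. In normal dogs it was -3.43, -2.69, -4.49, -3.11 and -3.20 in PBS eyes and -4.93, -5.66, -4.29, -4.36 and -1.89 in CNTF eyes. The groups did not overlap in mutants and overlapped in normal dogs, where CNTF eye 5 was the highest of all. No CNTF array of mutants was above background, so the fall is only known to be at least 1.87-fold (fitted difference -2.08 ± 0.51, adjusted p = 0.0105). In normal dogs the difference was -0.84 ± 0.51 with no call. SLC2A13, a proton myo-inositol symporter, fell by 1.05 in normal dogs (adjusted p = 0.0023), with 1 of 5 CNTF arrays above background. SLC5A3, the sodium myo-inositol cotransporter, fell by 0.62, a call that ended without normal dog 1, 3 or 5 (adjusted p up to 0.107). SLC2A11 fell by 1.52 ± 0.31 in normal dogs, with 4 dogs measured, and passed the filter only through their PBS eyes. SLC2A3, the neuronal glucose transporter GLUT3, differed by -0.49 ± 0.20 and -0.23 ± 0.20, with no call in either genotype. With normexp the falls of SLC2A12, SLC2A13 and SLC2A11 came to 0.07, 0.02 and -0.04 and were no longer called, and with the deposited values SLC2A11 showed -0.003 ± 0.832.

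SLC45A2, a melanosome transporter of pigment cells, fell by 1.84 ± 0.53 in mutants (adjusted p = 0.0237) and showed -0.47 ± 0.53 in normal dogs. The call ended without mutant dog 2, 3 or 4, with differences from -2.26 to -1.25 and adjusted p up to 0.0799, and with normexp the difference was 0.10. SLC24A5, another melanosome carrier, fell by 0.59 in normal dogs (adjusted p = 0.0215), lost without dog 2, 4 or 5, and differed by -0.51 in mutants with no call. Pigment epithelium markers ran from 1.56 to 2.69 in PBS and 0.63 to 1.87 in CNTF eyes of normal dogs, and from 1.49 to 2.25 and 0.68 to 1.57 in mutants. Among them TYRP1 was above background on 3 of 5 arrays in 3 of the groups. RPE65 (0.17 in normal dogs and -0.05 in mutants) and LRAT (-0.06 and -0.38) were called in neither genotype. The part of the pigment epithelium in the falls of SLC45A2 and SLC24A5 was not tested.

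Carriers of nucleosides and vitamins held 3 of the 6 largest rises. Of 11 genes 4 rose and 1 fell in each genotype. SLC43A3, a transporter of purine bases, had levels of -1.44, -1.72, -1.84, -1.53 and -1.96 in PBS eyes of normal dogs and 1.07, 0.23, 0.91, 0.35 and 1.33 in CNTF eyes. In mutants it had -1.73, -0.77, -1.35, -1.45 and -1.65 in PBS eyes and 0.87, 2.05, 0.57, 0.98 and 0.32 in CNTF eyes. The groups did not overlap in either genotype, and mutant dog 2 was highest with either treatment. The rise was 5.56-fold in normal dogs (2.48 ± 0.20, adjusted p = 5.81e-06) and 5.08-fold in mutants (2.35 ± 0.20, adjusted p = 1.05e-05). Fitted with the slide it was 2.87 ± 0.72, still called, and 2.20 ± 0.72 with no call.

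SLC5A6, the sodium-dependent carrier of biotin and pantothenate, rose from a mean of -0.17 ± 0.14 (SD, n = 5) to 1.70 ± 0.12 in normal dogs and from -0.06 ± 0.16 to 1.67 ± 0.32 in mutants. That was 3.66-fold (adjusted p = 2.0e-06) and 3.32-fold (adjusted p = 4.5e-06), and a second probe rose by 1.92 and 1.73. Fitted with the slide the rise was 1.74 ± 0.32 in normal dogs, still called, and 1.25 ± 0.32 in mutants with an adjusted p of 0.053. SLC46A2, a relative of the proton-coupled folate transporter, rose by 2.31 ± 0.28 and 2.04 ± 0.28. SLC29A3, a nucleoside transporter of lysosomes, rose by 0.74 and 0.50. SLC46A3, another lysosomal carrier, fell by 0.59 in normal dogs alone at the threshold, and SLC29A2, an equilibrative nucleoside transporter of the cell surface, fell by 0.59 in mutants. Neither difference between genotypes passed its own test (adjusted p for SLC29A2 0.103). The microglia marker levels given above moved with these rises too, and their part in them was not tested.

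**Figure D3:**
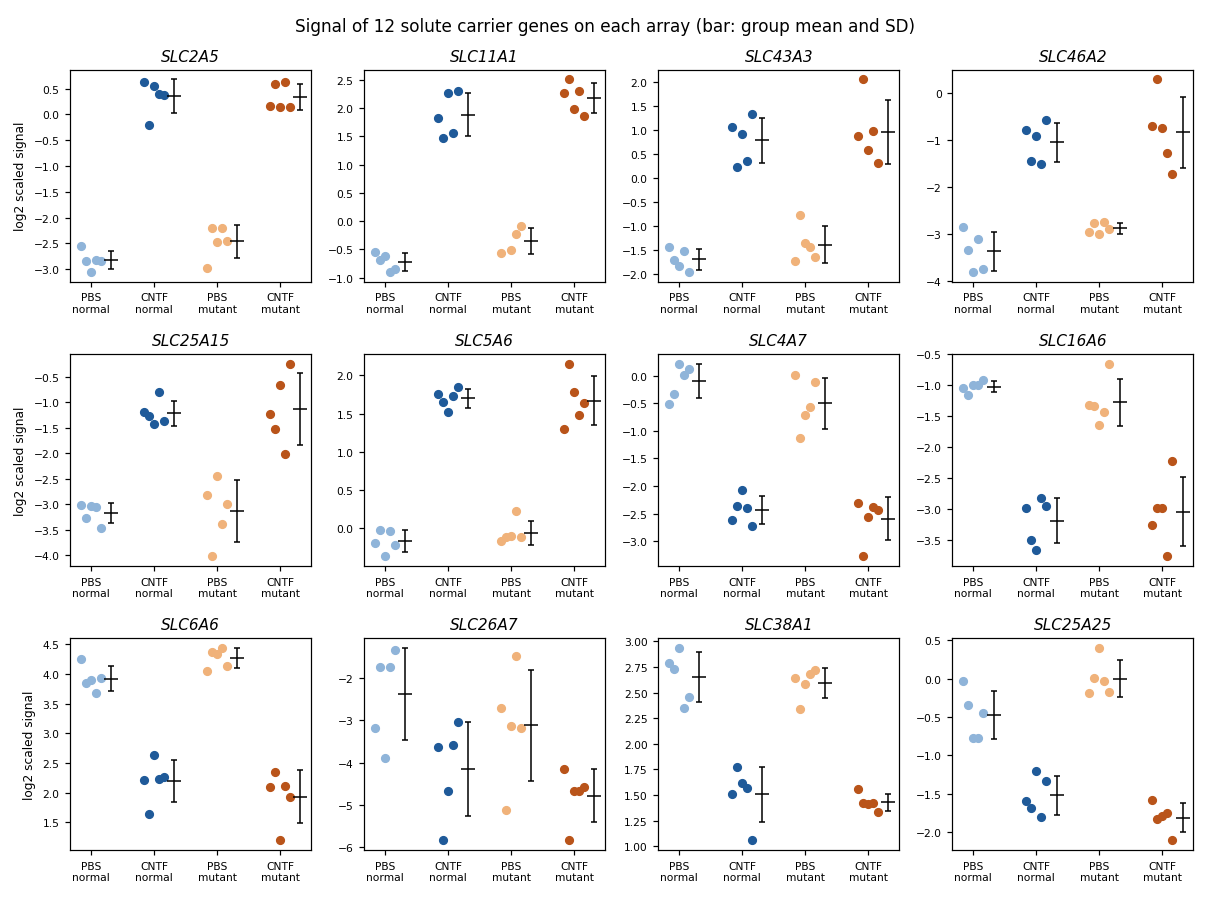
Log2 signal, scaled to the 75th percentile of each array, of 12 solute carrier genes on the 20 arrays. Points are eyes, in the order of dogs 1 to 5 within each group, and the bar is the group mean with its SD. CNTF eyes lie apart from PBS eyes in both genotypes for 11 of the 12 genes and overlap for SLC26A7.

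Metal ion and heme carriers numbered 27, with 9 rises and 5 falls in normal dogs and 3 of each in mutants. SLC11A1 (NRAMP1), which moves iron and manganese out of the phagosome of macrophages, rose most. Its level was -0.54, -0.70, -0.62, -0.90 and -0.85 in PBS eyes of normal dogs and 1.83, 1.48, 2.26, 1.55 and 2.30 in CNTF eyes. In mutants it was -0.57, -0.52, -0.23 and -0.08 in PBS eyes of dogs 1, 3, 4 and 5, as the spot of dog 2 was marked an outlier, and 2.26, 2.51, 1.98, 2.31 and 1.86 in CNTF eyes. CNTF eyes lay above PBS eyes throughout. The rise was 6.08-fold in normal dogs (2.60 ± 0.16, n = 5, adjusted p = 1.79e-06) and 5.47-fold in mutants (2.45 ± 0.18, n = 4, adjusted p = 6.96e-06). It was still called with slide as a block, at 2.12 ± 0.42 and 2.04 ± 0.41. A second probe, at chr37:28046557-28046616, rose by 0.93 ± 0.15 and 1.34 ± 0.15, less than the first in both genotypes. The microglia markers moved with SLC11A1 as with SLC2A5, and their part in its rise was not tested.

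Zinc carriers fell into 2 families that mostly move the ion in opposite directions. Of 7 SLC30A genes, a family most of which takes zinc out of the cytosol, 4 fell and none rose in normal dogs (SLC30A3, SLC30A6, SLC30A7 and SLC30A9). Of 12 SLC39A genes, which bring it in, 5 rose and 1 fell. In mutants the counts were 1 fall of 7, and 1 rise and 1 fall of 12. SLC39A3 rose by 1.17 ± 0.17 in normal dogs (adjusted p = 0.00036) and showed -0.06 ± 0.17 in mutants. SLC39A14, an importer of zinc and iron, rose by 0.62 in mutants, although the call ended without mutant dog 2, 4 or 5 (0.44 to 0.76). SLC39A6 was the fall of normal dogs at -0.84 and SLC39A11 that of mutants at -0.51, lost without mutant dog 2, 3, 4 or 5. The median of the SLC39A genes was 0.29 in normal dogs and -0.02 within slide 3, and that of the SLC30A genes -0.56 and 0.00. Of the 4 falls 2 ended when 1 dog was left out, SLC30A3 without dog 2, 4 or 5 and SLC30A9 without dog 1, 3 or 5. The same held for 4 of the 5 rises in normal dogs, SLC39A1, SLC39A4, SLC39A5 and SLC39A7, each lost without dog 3 or dog 5. SLC39A1 and SLC39A5 were also lost without dog 4, and SLC39A4 without any dog.

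Other metal carriers gave single calls. SLC40A1, the iron exporter ferroportin, rose by 0.54 ± 0.16 in normal dogs (adjusted p = 0.0172), lost without dog 3 or 5 (adjusted p up to 0.0661), and showed -0.02 in mutants. PBS eye 3 was the lowest at -3.10. SLC41A2, a magnesium transporter, rose by 1.43 ± 0.23 in mutants (adjusted p = 0.00074) and by 0.14 with no call in normal dogs. Only 1 of the 5 PBS arrays of mutants was above background for it, and the difference fell to 0.31 with slide as a block. SLC31A2, a copper carrier of vesicles, and SLC41A3 rose by 0.66 and 0.58 in normal dogs.

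Of 10 tested neurotransmitter carriers 1 rose and 3 fell in normal dogs, and 2 rose and 5 fell in mutants. Their median was -0.02 in normal dogs and -0.36 in mutants, against -0.09 over all probes in each. The median turned to 0.21 in mutants with normexp and to 0.06 in normal dogs with slide as a block. Over all probes the median in those fits was 0.17 and 0.02. SLC1A2, the glutamate transporter GLT-1, fell by 0.69 ± 0.11 (adjusted p = 0.000484) and 0.35 ± 0.11. SLC6A12, a betaine and GABA transporter, fell by 0.92 ± 0.13 and 0.62 ± 0.13. SLC6A11, the GABA transporter GAT-3, fell by 0.61 in mutants and showed -0.33 in normal dogs. The serotonin transporter SLC6A4 rose by 0.68 in normal dogs, lost without dog 5, and the neuronal glutamate transporter SLC1A1 rose by 0.59 in mutants, lost without mutant dog 2 or 3 (0.47 to 0.73).

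The vesicular carriers did not move alike. SLC17A7, the vesicular glutamate transporter of photoreceptor and bipolar terminals, fell by 0.50 ± 0.12 in mutants (adjusted p = 0.0081) and showed -0.06 ± 0.12 in normal dogs. SLC18A3, which loads acetylcholine, rose by 0.79 in mutants, but the call ended without mutant dog 2, 3, 4 or 5 and the difference was -0.20 with slide as a block. SLC1A6, the glutamate transporter EAAT4, fell by 0.69 in mutants yet was 0.64 in the fit with slide and 0.47 on slide 3 alone. SLC32A1, which loads GABA and glycine, could not be tested on its brightest probe, whose spots were marked outliers on most arrays. Its other probe showed -0.20 in normal dogs (adjusted p = 0.353) and -0.61 in mutants (adjusted p = 0.0261). The peptide carrier SLC15A4 was untested for the same reason.

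Markers of the neurons that release these transmitters moved as well. Of 3 amacrine cell genes 2 fell in normal dogs and 3 in mutants, GAD1 by 0.86 and 0.79, and their mean level ran from -0.33 to 0.07 in PBS and -0.94 to -0.69 in CNTF eyes of normal dogs. In mutants it ran from -0.29 to 0.01 and from -0.97 to -0.61. Of 6 bipolar cell genes 3 fell in normal dogs and 4 in mutants. Of 5 rod genes 1 rose and 1 fell in normal dogs (median -0.27), and 0 rose and 4 fell in mutants (median -0.82). The Müller glia list gave 2 rises and 1 fall in normal dogs and 2 falls in mutants. The part of any of these in the transporter falls was not tested. With normexp the difference of SLC6A12 came to -0.33 in normal dogs, with no call, and to 0.23 in mutants. The call of SLC1A2 in mutants ended with normexp (-0.56) and without mutant dog 1, 4 or 5 (-0.40 to -0.28, adjusted p up to 0.115). Once the slide was a block no gene of this group was called.

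**Figure D4:**
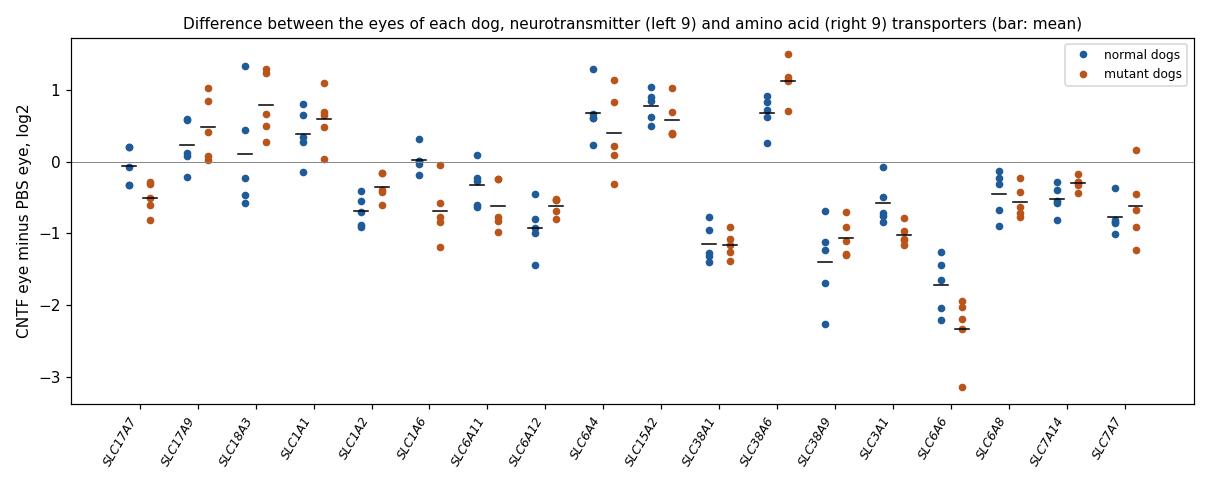
Log2 difference between the CNTF and the PBS eye of each dog for 9 of the 10 tested neurotransmitter transporters (left) and the 9 amino acid transporters called in both genotypes (right), with the mean as a bar. SLC6A6 lies below -1 in all 10 dogs, and SLC1A2, SLC6A12 and SLC38A1 below 0 in all 10.

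Amino acid and peptide carriers gave 6 rises and 10 falls of 28 in normal dogs and 3 rises and 9 falls in mutants. SLC6A6, the taurine transporter, fell most. Its level was 4.25, 3.85, 3.90, 3.67 and 3.92 in PBS eyes of normal dogs and 2.21, 1.64, 2.64, 2.23 and 2.27 in CNTF eyes. In mutants it was 4.04, 4.37, 4.34, 4.44 and 4.13 in PBS eyes and 2.10, 2.35, 1.20, 2.11 and 1.93 in CNTF eyes. Every CNTF eye lay below every PBS eye in both genotypes, and the CNTF eye of mutant dog 3 was the lowest of all. The fall was 3.30-fold in normal dogs (-1.72 ± 0.18, adjusted p = 3.87e-05) and 5.03-fold in mutants (-2.33 ± 0.18, adjusted p = 5.03e-06). The other 3 probes printed above fell by 1.16, 1.65 and 2.08 in normal dogs and by 1.67, 2.22 and 2.62 in mutants, in the order printed. Taking the slide as a block gave falls of 2.03 ± 0.48 and 2.64 ± 0.48, both still called, and with normexp it was 1.76 and 2.52. The larger fall in mutants was not called as a difference between genotypes.

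SLC38A1, a glutamine transporter of neurons, fell 2.21-fold (-1.15 ± 0.11, adjusted p = 2.2e-05) and 2.24-fold (-1.16 ± 0.11, adjusted p = 2.3e-05). A second probe fell by 1.11 and 1.18, while the remaining probe fell by 0.75 in normal dogs and showed -0.21 in mutants with no call. SLC38A9, an arginine sensor of the lysosome, fell by 1.40 ± 0.19 and 1.06 ± 0.19. SLC3A1, the heavy chain of a cystine carrier, fell by 0.58 and 1.02. The creatine transporter SLC6A8 fell by 0.45 and 0.56, SLC7A7, a carrier of cationic amino acids, by 0.78 and 0.62, and SLC7A14, a lysosomal protein of the retina, by 0.52 and 0.30. SLC15A2, the peptide transporter PEPT2, rose by 0.78 ± 0.12 and 0.58 ± 0.12, and SLC38A6 by 0.68 ± 0.13 and 1.13 ± 0.13. SLC1A5, a glutamine exchanger, rose by 0.85 in normal dogs and showed 0.19 in mutants.

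SLC3A2 and SLC7A5, the 2 chains of a large neutral amino acid exchanger, gave small differences. SLC3A2 fell by 0.46 in mutants (adjusted p = 0.0287), lost without mutant dog 2, 3 or 4 (adjusted p up to 0.105), and showed -0.29 in normal dogs. SLC7A5 showed -0.18 and -0.29 with no call, and its other probe 0.07 and 0.23. Leaving out 1 dog also ended the calls of SLC6A8 in normal dogs (dog 1, adjusted p 0.0524), of SLC7A7 in mutants (dogs 1, 4 or 5) and of SLC7A14 in mutants (any dog, adjusted p up to 0.114). In the fit with slide SLC38A1 showed -0.99 ± 0.33 and -0.91 ± 0.33 with no call, and SLC38A9 remained called in normal dogs at -1.98 ± 0.49. The falls of SLC38A9 ended with normexp (-0.61 and -0.17).

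Of 8 carriers of carboxylates and thyroid hormone 2 fell in each genotype and none rose. SLC16A6, a ketone body transporter of the monocarboxylate family, had levels of -1.15 to -0.91 in PBS eyes of normal dogs and -2.99, -3.50, -3.66, -2.82 and -2.96 in CNTF eyes. In mutants it had -1.32, -1.34, -1.64, -1.44 and -0.65 in PBS eyes and -3.26, -2.98, -2.99, -3.77 and -2.23 in CNTF eyes. The groups did not overlap, and dog 5 was the highest of the mutants in both eyes. The fall was 4.50-fold (-2.17 ± 0.15, adjusted p = 1.97e-06) and 3.40-fold (-1.77 ± 0.15, adjusted p = 1.07e-05). In the fit with slide it was 2.73 ± 0.60, still called, and 2.31 ± 0.60 with an adjusted p of 0.0542, and normexp gave 1.12 and 0.59, both called. SLC16A3, the lactate exporter MCT4, fell by 1.10 ± 0.17 in mutants (adjusted p = 0.00076) and showed -0.42 in normal dogs, and its call ended with normexp (-0.35). SLC16A11 fell by 0.63 in normal dogs but showed 0.07 within slide 3.

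Lipid and choline carriers gave 3 rises and 4 falls of 8 in normal dogs and 1 rise and 3 falls in mutants. SLC44A1, a choline transporter, fell by 1.31 ± 0.13 (adjusted p = 2.0e-05) and 0.93 ± 0.13 (adjusted p = 0.000303), and a second probe by 0.63 and 0.72. It was called in both genotypes also with slide as a block (-1.68 ± 0.33 and -1.32 ± 0.33) and with normexp (-1.23 and -0.92). Its relative SLC44A5 fell by 1.31 in normal dogs, with -0.70 and no call in mutants, whereas SLC44A3 rose by 1.16 and 0.82. With normexp SLC44A3 was not called (0.63 and 0.78). The fatty acid carrier SLC27A1 fell by 0.46 and 0.85, and SLC27A5 by 0.87 and 0.76. SLC27A4 rose by 0.62 and SLC27A3 by 0.39 in normal dogs, the latter lost without dog 5.

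Of 31 carriers of inorganic ions 4 rose and 11 fell in normal dogs, and 11 fell and none rose in mutants. Over all probes 27.6% fell in normal dogs and 17.3% in mutants, and 23.6 and 11.6% rose. SLC4A7, a sodium bicarbonate cotransporter, had levels of -0.51, -0.33, 0.22, 0.02 and 0.12 in PBS eyes of normal dogs and -2.62, -2.36, -2.07, -2.40 and -2.73 in CNTF eyes. In mutants it had 0.02, -1.12, -0.72, -0.57 and -0.12 in PBS eyes and -2.30, -3.27, -2.57, -2.38 and -2.43 in CNTF eyes. All CNTF eyes lay below all PBS eyes, and mutant dog 2 was lowest in both eyes of its group. The fall was 5.06-fold (-2.34 ± 0.13, adjusted p = 4.34e-07) and 4.25-fold (-2.09 ± 0.13, adjusted p = 1.15e-06). Fitted with the slide it was 2.87 ± 0.57, still called, and 2.05 ± 0.57 with an adjusted p of 0.0749. Normexp gave 1.59 and 1.04, both called.

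SLC26A7, an anion exchanger, was dimmer and more scattered. Its level was -3.18, -1.75, -3.88, -1.76 and -1.34 in PBS eyes of normal dogs and -3.63, -5.84, -4.68, -3.59 and -3.05 in CNTF eyes. In mutants it was -2.71, -5.12, -3.13, -1.48 and -3.19 in PBS eyes and -4.16, -5.82, -4.68, -4.66 and -4.57 in CNTF eyes. The groups overlapped, although the CNTF eye was lower in all 10 dogs, and 3 and 1 of 5 CNTF arrays were above background. The difference was -1.78 ± 0.46 (adjusted p = 0.0092) and -1.65 ± 0.46 (adjusted p = 0.0207). The call in mutants ended without mutant dog 3 or 4 (-1.89 to -1.27, adjusted p up to 0.0825), and with normexp the differences were -0.54 and -0.01 with no call. The probe's fall runs beside that of the pigment epithelium list above, in which RPE65 and LRAT gave no call. The part of the pigment epithelium in it was not tested.

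Chloride and sulfate carriers followed. SLC12A5 (KCC2), which keeps chloride low in neurons, fell by 0.60 ± 0.10 (adjusted p = 0.0011) and 0.58 ± 0.10 (adjusted p = 0.0018), and a second probe by 0.56 and 1.21. SLC12A2 (NKCC1), which loads chloride, fell by 0.54 in normal dogs, lost without dog 2, 3, 4 or 5, and showed -0.15 in mutants. SLC12A8 fell by 0.83 in mutants alone at the threshold. The sulfate carrier SLC26A2 fell by 1.09 and 0.56, with -0.50 and 0.22 and no call under normexp, and SLC26A1, another sulfate carrier, rose by 1.13 ± 0.17 in normal dogs (adjusted p = 0.00046) but showed -0.09 within slide 3. The phosphate carrier SLC20A1 rose by 0.51 in normal dogs. SLC4A4, the electrogenic bicarbonate cotransporter of Müller glia, showed -0.22 and 0.27 with no call. The falls of SLC12A5 ended with normexp (-0.40 and -0.24) and with slide as a block (-0.76 and -0.37).

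The sodium pump, whose gradient drives many of these carriers, and its partners gave 3 rises and 1 fall among 11 of 16 listed genes in normal dogs and 1 rise and 4 falls in mutants. ATP1B1, a beta subunit of the pump, fell by 0.36 in normal dogs and 0.44 in mutants. ATP1B2, another beta subunit, fell by 0.53 in mutants. FXYD1 and FXYD6, small regulators of the pump, rose by 0.85 and 0.61 in normal dogs.

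Mitochondrial carriers, 31 genes of the SLC25A family, gave 10 rises and 7 falls in normal dogs and 4 rises and 5 falls in mutants. SLC25A15, which carries ornithine for the urea cycle, rose from a mean of -3.17 ± 0.19 (SD, n = 5) to -1.22 ± 0.24 in normal dogs and from -3.13 ± 0.60 to -1.14 ± 0.70 in mutants. That was 3.87-fold (1.95 ± 0.19, adjusted p = 1.9e-05) and 3.97-fold (1.99 ± 0.19, adjusted p = 1.9e-05), and within slide 3 the difference was 1.95. SLC25A1, which exports citrate, rose by 1.09 ± 0.16 and 0.59 ± 0.16, the latter lost without mutant dog 4. SLC25A25, a calcium-regulated carrier of ATP and phosphate, fell by 1.05 ± 0.16 (adjusted p = 0.00045) and 1.81 ± 0.16 (adjusted p = 1.1e-05), and remained called with slide as a block in mutants (-1.67 ± 0.41).

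Smaller changes of mitochondrial carriers were spread over several substrates. The oxoglutarate carrier SLC25A11 rose by 0.92 and the glycine carrier SLC25A38 by 0.63 in normal dogs. The iron importer SLC25A37 rose by 0.47 and 0.30, the latter lost without mutant dog 1, 2, 4 or 5. The aspartate and glutamate carrier SLC25A13 fell by 0.38 and 0.45 and the pyrimidine nucleotide carrier SLC25A33 by 0.46 and 0.85. SLC25A12, the neuronal aspartate and glutamate carrier, and SLC25A4, an ATP and ADP exchanger, gave no call (-0.08 and -0.04, and 0.14 and -0.14). SLC25A41 was below background on every CNTF array of normal dogs, so its fall is only known to be at least 1.03-fold, and it passed the filter only through their PBS eyes. With slide as a block SLC25A15 showed 2.31 ± 0.78 and 1.92 ± 0.78 with no call.

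The 5 carriers of nucleotide sugars and acetyl-CoA gave 1 rise and 2 falls in normal dogs and no call in mutants. SLC35A3, which carries UDP-N-acetylglucosamine into the Golgi, fell by 0.67 and SLC35A5 by 0.49 in normal dogs, and neither was called with normexp (-0.39 and -0.18). Of 11 carriers of organic ions, bile acids and drugs 3 rose and 3 fell in normal dogs and 2 fell in mutants. SLC22A25, an organic anion carrier, fell by 1.01 ± 0.13 and 0.72 ± 0.13, and normexp gave -0.42 and 0.12. SLC22A23 rose by 0.87 in normal dogs and remained called with slide as a block (1.79 ± 0.46), but not with normexp (0.56 ± 0.26, adjusted p = 0.158). SLC22A17, a receptor of the iron-binding protein lipocalin-2, fell by 0.33 in mutants, lost without mutant dog 1, 2, 3 or 5 (-0.40 to -0.27) and with normexp, quantile normalization or the deposited values. Among organic anion transporters of the SLCO family, listed for comparison, 4 of 9 passed. SLCO4A1 fell by 0.66 and 1.11, SLCO2A1 rose by 0.36 and 0.38, and SLCO3A1 rose by 0.53 in normal dogs. Of the 2 genes named after a transporter but not transporters themselves, SLC9A3R1, a scaffold protein, rose by 0.98 in normal dogs, in 4 of 5 of them.

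The next question was whether CNTF acted differently in the 2 genotypes. By the test of the difference itself (limma, mutant minus normal change) 0 of 191 solute carriers and 0% of all probes passed, and the smallest adjusted p among the carriers was 0.103. Without adjustment 49 carriers had a p under 0.05, 25.7% against 34.7% of all probes. SLC39A3 had the smallest p. Its level was -1.62, -1.98, -2.48, -2.38 and -2.32 in PBS eyes of normal dogs and 0.29, -1.52, -1.21, -1.61 and -0.91 in CNTF eyes. In mutants it was -1.68, -0.90, -1.30, -1.18 and -1.67 in PBS eyes and -1.81, -0.86, -1.44, -1.09 and -1.80 in CNTF eyes. The difference was -1.22 ± 0.24 (adjusted p = 0.103), higher after CNTF in 5 of 5 normal dogs and 2 of 5 mutants. SLC41A2 differed by 1.29 ± 0.32, SLC26A1 by -1.07 ± 0.24 and SLC12A8 by -0.75 ± 0.20. The median SE of such a difference was 0.22.

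In PBS eyes, mutants and normal dogs were compared with no covariate, so age and sex were not separated from genotype. None of 191 carriers passed (limma, smallest adjusted p 0.0952), against 0.0272% of all probes. Without adjustment 68 had a p under 0.05, 35.6% against 34.6% of all probes. The groups did not overlap for 14 genes, 10 higher and 4 lower in mutants, which was 7.33% against 5.41% of all probes. SLC26A6, an anion exchanger, had levels of -3.12, -3.03, -3.13, -3.50 and -2.81 in normal dogs and -2.27, -1.44, -2.30, -2.13 and -2.29 in mutants, a difference of 1.03 ± 0.19 with an adjusted p of 0.0952. Within slide 2 it was 0.81. SLC26A1 was higher in mutants by 1.12 ± 0.24 (1.17 within slide 2) and SLC29A2 by 0.66 ± 0.14 (0.77 within slide 2).

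A single array decided this count. Without normal dog 1, 39 carriers were called, 27 higher and 12 lower in mutants, which was 20.4% against 21.5% of all probes. Without any other single dog none was. Among the 39, SLC29A2 differed by 0.76 ± 0.12, SLC26A6 by 1.03 ± 0.21 and SLC39A3 by 0.95 ± 0.19 (each adjusted p = 0.0359). SLC6A6 was higher by 0.43 ± 0.13 and SLC4A4 lower by 0.63 ± 0.20.

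In CNTF eyes none of 191 carriers passed between genotypes (limma, smallest adjusted p 0.495), against 0.00681% of all probes, and 10 had an unadjusted p under 0.05, 5.24% against 5.61% of all probes. The groups did not overlap for 2 genes, 1.05% against 1.09% of all probes. SLC45A2 was one. Its level was -3.10, -3.31, -1.80, -2.54 and -1.56 in CNTF eyes of normal dogs and -4.06, -5.22, -6.35, -3.61 and -3.98 in those of mutants. All mutant eyes lay below all normal eyes, a difference of -2.18 ± 0.53 (adjusted p = 0.495), and -2.09 within slide 4. Ferroportin (SLC40A1) was the other, lower in mutants by 0.45 ± 0.14 and by 0.29 within slide 4.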

How the data were processed

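Retinal RNA with an integrity number above 8 was labelled with Cy3 from 100 ng per eye, per the labels' protocols. The deposited array files give intensity per spot from Agilent Feature Extraction 9.5.3.1, named in the submitters' processing notes with Partek 6.4. Per the file headers the intensity was background-subtracted and detrended and not scaled between arrays. A deposited table of log2 values (median 6.185 in every column) was used only as an alternative.

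Control and outlier spots were left out, spots of a probe averaged, and the 75th percentile of each array subtracted from log2 intensity, over 43603 probes, of which 29545 passed. Of 348 solute carrier probes 264 passed. The percentile lay between 291 and 592 intensity units. No solute carrier was saturated. Tests were two-sided with limma 3.58.1 in R 4.3.3 on all passing probes with at least 3 measured arrays per group, and Benjamini-Hochberg adjustment ran over all of them. CNTF changes were fitted on 20 arrays with the dog as a block, and genotypes on 10 arrays with no covariate. p-values measure the spread between these dogs. "At least" folds set the brighter mean against the lowest signal above background. Figures used Python 3.11.15 and matplotlib 3.10.9.

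Both eyes of a dog share its number in the labels. Deviations of same-numbered arrays correlated at -0.156 to 0.693 over all probes and at 0.173 to 0.742 over the 500 most variable.

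Of 193 names 190 matched a current symbol in a table of the assembly UU_Cfam_GSD_1.0, and the others kept the name in the file. Of 51 genes with several passing probes none had probes called in opposite directions, and 8 had probes of opposite sign in normal dogs and 10 in mutants. Members, substrate groups and marker lists were chosen with earlier results of these data known. Named genes are the 10 largest called rises and falls among genes that moved 1 way in each measured dog, the 2 lowest adjusted p in each substrate group and a list of 12 transporters, and other named genes were chosen after their values were seen. Alternatives were quantile normalization, normexp (offset 50), the deposited values, other filters, male dogs only, the next brightest probe, no replicate block, slide as a block and leaving out each dog. Some genes counted here are not reported by name. Statistics scripts were tested on simulated data.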

Additional observations from a re-analysis of the deposited data

Results flagged for a closer look

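Among 196 groups of named genes, 9 held an array far from the others, and chance gives about 1 in 20. In PBS eyes SLC5A6 of mutant dog 4 was at 0.22 (others -0.18 to -0.11), SLC25A41 of normal dog 4 at -4.93 (others -4.04 to -3.69) and SLC6A12 of normal dog 1 at -2.43 (others -1.99 to -1.88). Normal dog 3, the only CNGB3+/+ dog, was low in its PBS eye for SLC9A3R1 at -3.59 (others -3.02 to -2.83) and SLC40A1 at -3.10 (others -2.12 to -1.75). In CNTF eyes mutant dog 2 was low for SLC4A7 at -3.27 (others -2.57 to -2.30) and high for SLC17A7 at 3.21 (others 2.64 to 2.80). Mutant dog 5 was high for SLC38A9 at -2.49 (others -3.58 to -3.29), and normal dog 2 was low for SLC2A3 at -4.26 (others -3.61 to -3.36).

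Of the 193 solute carrier genes, another 3 were higher after CNTF in all normal dogs and lower in all mutants. They were picked out from the same data after their values were seen. The share of all probes that moved this way was not counted, so the count has no background to stand beside. No gene was called in opposite directions in the 2 genotypes. The mutant minus normal difference was -0.55 for SLC22A17, -0.55 for SLC39A7 and -0.80 for SLC41A3, a magnesium carrier. None of these differences passed the test of the difference itself.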

How the results depend on the processing

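Quantile normalization, the deposited values, the filters on dim probes, the next brightest probe and the fit with no replicate block kept the counts of CNTF calls within 1.5 times those reported. Without the replicate block, in which both eyes of a dog are paired, 80 genes were called in normal dogs and 46 in mutants. Normexp gave 35 and 24, slide as a block 10 and 5, and slide with the replicate block 0 in both. Calls over all probes dropped in these fits too, with the counts given above. Leaving out each dog gave 81 to 98 calls in normal dogs and 44 to 55 in mutants, where 73 of 99 and 38 of 63 calls held in every omission. The PBS genotype count was 0 to 39 over the omissions.

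Normexp turned the sign of 4 of the 99 calls of normal dogs and 14 of the 63 of mutants. The median of all probes turned as well, from -0.09 to 0.09 in normal dogs and to 0.17 in mutants. A turned sign therefore need not be a change of direction against all probes. Normexp left 35 of the 99 and 22 of the 63 called in the same direction. With slide as a block 5 of 99 and 4 of 62 turned. Differences of named genes that changed sign, called or not, are listed here for the genotype in which the rule named the gene. In the other genotype uncalled differences turned too, with slide as a block to -0.57 for SLC41A2 in normal dogs and, in mutants, to 0.22 for SLC16A11, -0.18 for SLC9A3R1, -0.21 for SLC26A1 and 0.24 for SLC39A3. With normexp the listed differences in mutants were SLC22A25 (0.12), SLC2A12 (0.07), SLC2A3 (0.42), SLC40A1 (0.37), SLC45A2 (0.10) and SLC6A12 (0.23). In normal dogs they were SLC2A13 (0.02) and SLC2A3 (0.14). With slide as a block they were SLC18A3 (-0.20), SLC1A6 (0.64), SLC40A1 (0.21) and SLC7A5 (0.15) in mutants and SLC17A7 (0.03), SLC2A3 (0.09) and SLC7A5 (0.18) in normal dogs. With slide and the replicate block they were SLC1A6 (0.41), SLC40A1 (0.21), SLC4A4 (-0.01) and SLC7A5 (0.43) in mutants and SLC17A7 (0.06) and SLC7A5 (0.40) in normal dogs. Within slide 3 they were SLC16A11 (0.07) and SLC26A1 (-0.09) in normal dogs and SLC18A3 (-0.17) and SLC1A6 (0.47) in mutants. The next brightest probe turned SLC17A7 (0.12) in normal dogs and SLC7A5 (0.07 in normal dogs, 0.23 in mutants). SLC40A1 in mutants was 0.03 with the deposited values and with quantile normalization, and ranged from -0.16 to 0.05 over the omissions of a dog, at 0.00 or above in 4 of them. SLC17A7 in normal dogs ranged from -0.13 to 0.00. The cause was not tested. Signals near background limit the size of falls, and the 5 slides limit what can be said of treatment apart from slide.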
